A study of Mus musculus with 12 samples.

Results

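Ifng-expressing T cells of the gut lamina propria, the connective tissue under the epithelium, were taken as cells of the colon and small intestine lamina propria libraries that met 4 limits. The summed UMIs of Cd3d, Cd3e and Cd3g, the T cell receptor signalling subunits, were 3 or more, Ifng had 2 or more UMIs, Il17a had none and Il22 had fewer than 3. A UMI, or unique molecular identifier, tags a single captured transcript. The rule took 1796 cells, which were 13.3% of 13510 CD3-positive lamina propria cells and 5.48% of the 32763 cells of the series. They are set beside 9517 CD3-positive cells of the same 6 libraries with no Ifng UMI, called Ifng-zero cells. Since Ifng UMIs chose the members, their contrast with Ifng-zero cells is a description and carries no test. Genotype and tissue are tested. The same contrast is also tested in libraries outside the lamina propria, where Ifng UMIs again sort the cells.

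The study transferred Th1 cells, helper T cells specialised for interferon-γ, and sequenced single cells from the recipients' gut and spleen. The knockout (KO) cells carried eGFP on both Il23r alleles (Il23r eGFP/eGFP), and the control cells had a wild-type allele beside an eGFP allele (Il23r wt/eGFP), so that both genotypes carry eGFP. Each genotype had colon lamina propria libraries of replicates 1 and 2 and a small intestine lamina propria library of replicate 2, all labelled as CD4 T cells. The recipients' strain, the lymphocytes they had of their own and whether libraries came from separate animals are not given in the sources used here, so p-values measure the spread between libraries, which may be technical.

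Interferon-γ, the product of Ifng, acts through its receptor on macrophages, epithelium and T cells themselves, and induces chemokines such as Cxcl10 and guanylate-binding proteins. Its transcription in Th1 cells depends on the factor T-bet (Tbx21) and is switched on by the T cell receptor, through NFAT and AP-1, or by IL-12 and IL-18. The IL-23 receptor pairs Il23r with Il12rb1, which the IL-12 receptor also uses, and is best known for sustaining IL-17-producing and other inflammatory T cells in the gut.

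Ifng lies on chromosome 10 (chr10:118441046-118445892, mm10, plus strand), Ccl3 and Ccl4 near each other on chromosome 11 (chr11:83647844-83649355, minus strand, and chr11:83662584-83664683, plus strand) and Cxcl10 on chromosome 5 (chr5:92346638-92348889, minus strand). Promoters of Ifng and of 2 chemokine genes that were higher beside it are shown with their matches to the core motif of NFAT. Whether NFAT acts on these promoters in these cells was not tested. The sequences are RefSeq's for GRCm38.p6, 250 bases before to 50 bases after the start of each gene, read 5′ to 3′ on the gene's strand, and capitals mark the NFAT core GGAAA on either strand. The windows are chr10:118440796-118441095 for Ifng, chr11:83649329-83649628 for Ccl3 and chr5:92348840-92349139 for Cxcl10.
Ifng: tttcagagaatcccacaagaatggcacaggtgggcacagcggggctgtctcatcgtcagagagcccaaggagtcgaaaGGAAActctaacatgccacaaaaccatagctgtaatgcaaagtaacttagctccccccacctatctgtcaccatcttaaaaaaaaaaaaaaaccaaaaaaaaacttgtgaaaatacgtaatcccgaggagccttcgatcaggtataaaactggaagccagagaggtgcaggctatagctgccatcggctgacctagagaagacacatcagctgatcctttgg
Ccl3: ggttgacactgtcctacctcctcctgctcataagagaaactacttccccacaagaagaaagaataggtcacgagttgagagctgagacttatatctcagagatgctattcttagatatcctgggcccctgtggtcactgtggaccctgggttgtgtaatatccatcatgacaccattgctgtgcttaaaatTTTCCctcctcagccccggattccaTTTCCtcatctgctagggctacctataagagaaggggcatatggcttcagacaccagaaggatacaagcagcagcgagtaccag
Cxcl10: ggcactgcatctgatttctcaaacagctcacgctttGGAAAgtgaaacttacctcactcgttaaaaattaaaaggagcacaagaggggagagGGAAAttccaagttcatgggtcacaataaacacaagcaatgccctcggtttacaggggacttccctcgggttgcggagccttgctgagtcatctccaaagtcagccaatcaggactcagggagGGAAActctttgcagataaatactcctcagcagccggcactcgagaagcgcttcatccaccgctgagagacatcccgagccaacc
The Ifng window held 1 match to the NFAT core, the Ccl3 window 2 and the Cxcl10 window 3. Of 32851 mouse promoters of this length 61.3% held at least 1 match, 26.7% at least 2 and 9.4% at least 3. The AP-1 motif TGANTCA, with N any base, matched once in Cxcl10 and in neither of the other windows (7.8% of promoters hold it). The T-box motif TCACACC matched in none of the 3 windows (4.0% of promoters), and TATAAA matched only in that of Ifng (13.6%). A match describes these letters and is not a measured binding site.

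The 6 lamina propria libraries held 1502 to 3662 cells and 3107528 to 14292028 UMIs, and the members' median was 3363.5 UMIs per cell against 2879 in Ifng-zero cells. The KO small intestine library stood apart, with 50.6% CD3-positive cells against 89.0% to 96.8% in the other 5. Cell barcodes shared with another library occurred in 85 members. With every cell thinned to 1500 UMIs, which leaves out 70 members and 976 Ifng-zero cells of lower depth, Cd4 was detected in 31.9 ± 2.51% of members, against 28.8 ± 2.38% of Ifng-zero cells (SD, 6 libraries). Without thinning the shares were 56.9 ± 9.40% and 49.0 ± 7.90%. At the thinned depth Cd8a was detected in 0.764% and 0.263%, Foxp3 in 0.162% and 0.366% and the natural killer receptor Ncr1 in 0% and 0.0471% of members and Ifng-zero cells. The list of natural killer and innate lymphoid cell genes summed to 794 to 1540 CPM, UMIs scaled to a fixed total, in members and 722 to 1260 CPM in Ifng-zero cells, mostly from Id2, which Th1 cells also express (1085 and 941.9 CPM), with Klra1, Klra4, Klra7 and Klra8 at 0 in members. Of the other marker lists, neutrophil and mast cell genes summed to 0 to 1.41 CPM in members with 8 of 11 genes at 0, B and plasma cell genes to 1.02 to 3.28 CPM with Jchain, Mzb1 and Ms4a1 at 0, and epithelial genes to 9.85 to 28.5 CPM, against 10.5 to 478 CPM in Ifng-zero cells. Macrophage and dendritic genes summed to 7.91 to 121 CPM in members and 7.93 to 25.9 CPM in Ifng-zero cells, with Flt3 and Clec9a at 0 in both. Cells with 3 or more UMIs of other cell types were left out in an alternative given at the end. The part of macrophage and dendritic genes alone was not tested. The label's other markers were present in both classes: Ccl5, a chemokine of effector T cells, was detected in 79.4 ± 8.95% of members and 70.8 ± 7.41% of Ifng-zero cells at the thinned depth, and Tbx21 in 10.5 ± 2.61% and 7.07 ± 1.95%. Without thinning these shares were 88.6% and 80.2% for Ccl5 and 19.3% and 13.4% for Tbx21.

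Within the members, Ifng was unevenly spread over cells. The median member had 3 Ifng UMIs and the highest 111. At the threshold lay 709 members with exactly 2 UMIs (39.5%), and 2118 CD3-positive cells with exactly 1 UMI lay just outside it. The 172 members with 10 or more UMIs (9.58%) held 39.8% of the members' Ifng UMIs, and the members together held 9232 of the 12564 Ifng UMIs of the lamina propria (73.5%). Of 1875 CD3-positive cells with 2 or more Ifng UMIs, the limits on Il17a and Il22 left out 79, of which 37 had Il17a and 55 had 3 or more Il22 UMIs. No cell with 2 Ifng UMIs was found among 33 lamina propria cells with no CD3 or lymphocyte marker UMI and 3 or more UMIs of other cell types, which allows a share of up to 9.09%, or among 121 such cells of all libraries, which allows up to 2.48% at a median of 2407 UMIs per cell, against 13.9% of CD3-positive cells at a median of 2967. Intervals and such limits cover counting error only.

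Members formed 13.6%, 15% and 13.5% of CD3-positive cells in the KO libraries (colon 1, colon 2 and small intestine, the order used for every gene), against 17.9%, 12.3% and 8.55% in the control libraries. The groups overlapped, because the colon control 1 library was the highest of the 6 and the small intestine control library the lowest. The Clopper-Pearson 95% intervals of those 2 libraries were 15.9% to 20.1% and 7.38% to 9.84%. KO libraries averaged 14.0 ± 0.807% and control libraries 12.9 ± 4.72% (SD, n = 3 each), a logit difference of 0.138 with p = 0.667 in an exact two-sided permutation test within tissue, in which the smallest possible p is 0.167. With cells thinned to 1500 UMIs, 70 shallower members drop out, and the limit of 2 Ifng UMIs was applied again to the thinned UMIs. This left 180, 274 and 64 members in KO libraries, of 373, 488 and 110, and 86, 172 and 73 in control libraries, of 248, 400 and 177. The shares were then 6.57%, 10.2% and 10.0% in KO and 6.24%, 5.56% and 4.06% in control libraries. At equal depth each KO library was above all control libraries, narrowly for the colon 1 pair, with a logit difference of 0.561 and p = 0.167, the smallest the exact test can give, so a difference could not have passed 0.05. The share of members with 10 or more Ifng UMIs was 14.7%, 7.38% and 9.09% in KO libraries and 12.9%, 7.50% and 5.08% in control libraries, again overlapping.

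**Figure D1:**
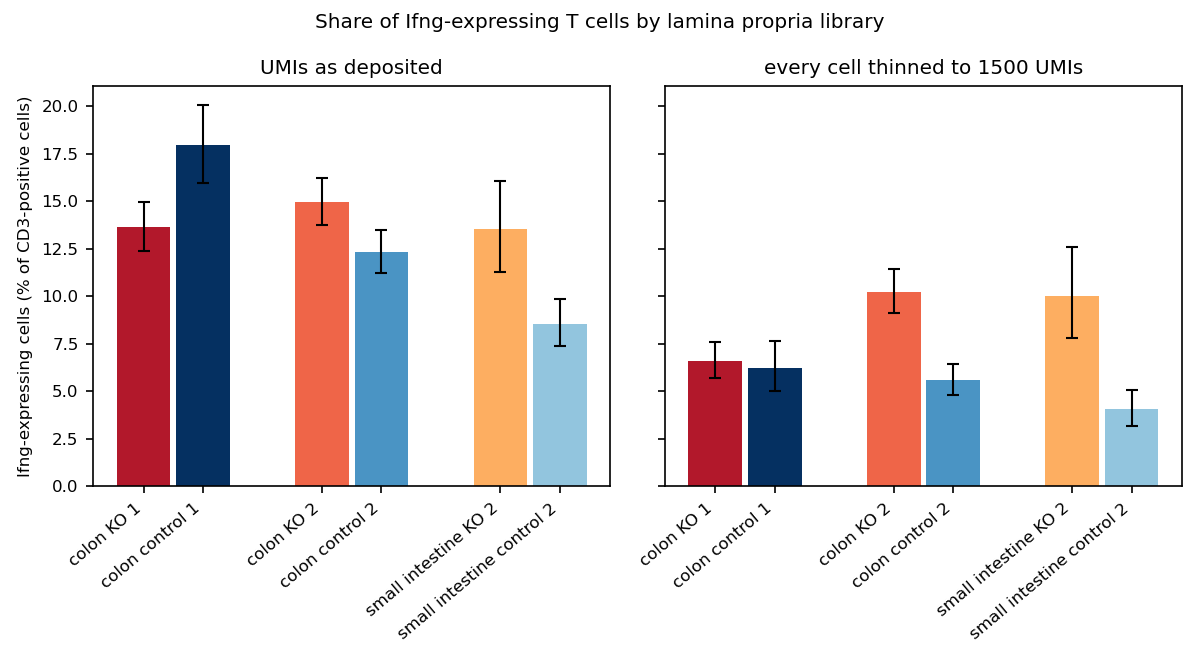
Ifng-expressing cells as a percentage of CD3-positive cells in each lamina propria library, with UMIs as deposited (left) and with every cell thinned to 1500 UMIs (right); each KO library stands left of its control, and bars carry Clopper-Pearson 95% intervals of counting error. As deposited, the shares overlap between genotypes (13.5% to 15% in KO, 8.55% to 17.9% in control), and after thinning each KO library lies above all 3 controls.

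Set against Ifng-zero cells of the same library, the members were higher in the chemokines Ccl3, Ccl4 and Cxcl10, in Tnf, in Gzmb and in 7 of 29 genes that the T cell receptor switches on, and lower in 7 of 12 genes of naive and central memory T cells. A gene was counted where all 6 libraries lay on the same side and the mean log2 ratio of scaled CPM was at least 0.58 in size. Of 4911 genes with at least 20 CPM in either class, 52 (1.06%) were higher in members and 46 (0.937%) were lower, and the median of all 4911 was -0.05. Without the scaling between sums, plain CPM gave 67 higher and 28 lower genes, and against Ifng-zero cells matched for depth the counts were 70 and 25, with 35 and 20 of them shared with the main counts.

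Chemokines stood first. Ccl3, a chemokine that draws macrophages and T cells, had 50.5, 79.2 and 100.2 CPM in members of KO libraries and 38.2, 28.6 and 58.5 CPM in members of control libraries, against 9.3, 30.3 and 37.0 CPM and 16.1, 5.4 and 16.8 CPM in Ifng-zero cells of the same libraries. In every library the members were above the Ifng-zero cells, by a mean log2 ratio of 1.74 ± 0.49 (SD, 6 libraries), and by 1.72 against depth-matched cells. Ccl4, a related chemokine whose gene lies beside Ccl3 on chromosome 11, had 146.1, 396.6 and 531.6 CPM in KO members and 206.3, 162.4 and 516.2 CPM in control members, against 55.0, 215.0 and 370.3 CPM and 60.5, 78.6 and 249.8 CPM in Ifng-zero cells (1.11 ± 0.43, and 1.78 against depth-matched cells). In cells thinned to 1500 UMIs both genes were detected in 2.49% of members, against 0.922% from the product of their shares, and all 6 libraries lay above their product. Ifng-zero cells also exceeded their product, with 0.885% against 0.144% and all 6 libraries above, so the pairing was not particular to members. Cxcl10, which binds Cxcr3 on Th1 cells and is itself induced by interferon-γ, had 241.7, 198.0 and 182.3 CPM in KO members and 258.2, 58.1 and 84.8 CPM in control members, against 99.2, 100.6 and 79.1 CPM and 99.0, 35.3 and 30.1 CPM in Ifng-zero cells (1.17 ± 0.28). Xcl1, the ligand of Xcr1 on cross-presenting dendritic cells, was higher in 5 of 6 libraries (0.60 ± 0.63) and was not counted. Ccl5 was not counted, with a mean log2 ratio of 0.07 ± 0.23 and 5 of 6 libraries higher, and stood at 0.47 against depth-matched cells, again with 5 of 6 higher. In all, 3 of 7 chemokines kept were counted as higher (median 0.94).

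Among cytokines made with interferon-γ, 1 of 6 kept was counted. Tnf, which acts with interferon-γ on epithelium and macrophages, had 25.5, 35.6 and 33.4 CPM in KO members and 35.1, 12 and 17.6 CPM in control members, against 11.7, 21.0 and 12.3 CPM and 8.5, 7.6 and 11.3 CPM in Ifng-zero cells (log2 ratio 1.07 ± 0.54). Csf2, the growth factor GM-CSF, was higher in 5 of 6 libraries with a wide spread (1.06 ± 1.62), and Il2, the T cell growth factor, was higher in 2 of 6 (-0.31 ± 0.53). Tnfsf9, the ligand of the costimulatory receptor 4-1BB, was the member of the TNF superfamily list that was counted (0.99 ± 0.40, 1 of 5). Of cytotoxic genes, 2 of 13 were counted: Gzmb, a granule protease, had 984, 1219 and 1795 CPM in KO members and 738.7, 1207 and 1544 CPM in control members, against 634.9, 734.2 and 963.5 CPM and 551.2, 744.3 and 658.6 CPM in Ifng-zero cells (0.77 ± 0.27). Gzma followed with 0.64 ± 0.26, but against depth-matched cells it stood at 0.38 with 4 of 6 libraries higher and would not be counted. Gzmb transcripts were detected in 42.9 ± 8.52% of members and 28.8 ± 4.95% of Ifng-zero cells thinned to 1500 UMIs, and in 53.1 ± 6.39% and 36.9 ± 4.10% without thinning (SD, 6 libraries).

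Genes that follow T cell receptor engagement were counted in 7 of 29 (list median 0.06). They included Egr1, an immediate early factor (0.94 ± 0.19), Gadd45b (0.93 ± 0.23), the adhesion ligand Icam1 (0.89 ± 0.21) and Cd69, an early activation marker that also holds T cells in tissue (0.85 ± 0.22). Outside that list, Gadd45g, which activates the p38 and JNK kinases and is known to promote interferon-γ production by Th1 cells in mice, had 110.8, 71.3 and 121.5 CPM in KO members and 49.6, 75.7 and 38.0 CPM in control members, against 34.6, 37.1 and 34.1 CPM and 29.6, 21.1 and 18.0 CPM in Ifng-zero cells. Its lowest member value, 38.0 CPM, was just above its highest Ifng-zero value, 37.1 CPM, so the classes did not overlap (log2 ratio 1.33 ± 0.48). Of 18 genes that limit Ifng mRNA or its signalling, 1 was counted: Zfp36, tristetraprolin, which binds AU-rich elements and speeds the decay of cytokine mRNAs (1.15 ± 0.58). Cish, an inhibitor of cytokine signalling, averaged 0.52 ± 0.25 and lay under the limit with 6 of 6 libraries higher.

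Of 18 kept regulators and receptors of the Th1 programme none was counted in either direction (median 0.11). Tbx21 had 77.7, 70.0 and 57.7 CPM in KO members and 75.6, 29.1 and 45.3 CPM in control members, against 48.3, 61.0 and 44.3 CPM and 66.6, 26.8 and 41.2 CPM in Ifng-zero cells. Every library had more Tbx21 in members, by a log2 ratio of 0.28 ± 0.22, and by 0.47 with 6 of 6 libraries higher against depth-matched cells. Stat4, which carries the IL-12 signal, was lower in 6 of 6 at -0.28 ± 0.16 (-0.11 with 1 library higher against depth-matched cells), and Il12rb1 and Il12rb2, the chains of the IL-12 receptor, averaged 0.25 ± 0.24 and 0.30 ± 0.51, the second with 0.51 against depth-matched cells. The chains Ifngr2 and Il23r lay under the limit of 20 CPM and were not counted: Ifngr2, of the interferon-γ receptor, at 4.79 CPM in members against 13.0 CPM in Ifng-zero cells (-1.48 ± 0.42), and Il23r at 0.902 against 2.93 CPM (-1.32 ± 1.11, and -0.81 against depth-matched cells), each lower in all 6 libraries. The limits on Il17a and Il22 removed cells from the members and not from the Ifng-zero cells, and their part in the Il23r difference was not tested. Interferon-γ response genes were counted in 1 of 17, the guanylate-binding protein Gbp2 (0.67 ± 0.36), with Irf1 at 0.34 ± 0.26 (0.64 against depth-matched cells), and type I interferon-stimulated genes in 0 of 9.

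Genes of naive and central memory T cells were lower: 7 of 12 kept were counted as lower and none as higher (median -0.63). Ccr7, the lymph node homing receptor, had 54.8, 6.6 and 33.4 CPM in KO members and 24.4, 6.5 and 10.2 CPM in control members, against 98.7, 17.8 and 92.2 CPM and 52.8, 77.2 and 40.2 CPM in Ifng-zero cells (log2 ratio -1.68 ± 0.94). Tcf7, the factor TCF-1 that keeps T cells able to self-renew, had 78.2, 48.8 and 121.5 CPM in KO members and 79.4, 72.7 and 64.3 CPM in control members, against 107.0, 101.9 and 223.6 CPM and 118.1, 142.1 and 118.4 CPM in Ifng-zero cells (-0.80 ± 0.24). Slamf6 (-0.94 ± 0.28), the costimulatory receptor Cd27 (-0.87 ± 0.31), Klf3 (-0.75 ± 0.47) and the tissue exit receptor S1pr1 (-0.66) went with them. Against depth-matched cells Ccr7 stood at -1.66, Tcf7 at -0.69 and Slamf6 at -0.84, while Cd27 at -0.49 and Klf3 at -0.42, the last with 1 library higher, would no longer be counted. Ramp3, a subunit of receptors for adrenomedullin and calcitonin gene-related peptide, had 572.4, 90.4 and 63.8 CPM in KO members and 709.7, 53.6 and 52.6 CPM in control members, against 1099, 184.3 and 203.3 CPM and 1036, 153.1 and 145.5 CPM in Ifng-zero cells (-1.19 ± 0.42). Both replicate 1 colon libraries had far more Ramp3 than the 4 libraries of replicate 2, in members and in Ifng-zero cells. Ccr4, a Th2 homing receptor (-0.89 ± 0.36), the decoy receptor Il1r2 (-0.90 ± 0.55) and Dtx1, a Notch target (-0.80 ± 0.20), were also lower. Cul2 and Gnpda2 were counted as lower with 0 UMIs in the KO small intestine members, which set their means.

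Some heat shock and proliferation genes were also counted as higher, with values that varied with library or depth. Hspa1a, a chaperone that tissue dissociation also induces, had 2690, 6162 and 4393 CPM in KO members and 1858, 58.6 and 422.6 CPM in control members, against 630.2, 3779 and 2228 CPM and 670.1, 30.9 and 112.0 CPM in Ifng-zero cells. Its level differed far more between libraries than between classes. Of 20 heat shock and dissociation genes 4 were counted as higher (Hspa1a, Hspa1b, Jun and Fos), and of 20 proliferation genes 6 (median 0.55). Against depth-matched cells the cyclins Ccna2 and Ccnb1 stood at 0.17 and 0.27, against 1.20 and 1.07 in the main description, Mki67 stood at 0.18 against 0.87, and Birc5 at -0.08 against 0.91. Of 15 glycolysis genes the hexokinase Hk2 was counted as higher (0.76 ± 0.26), and of 5 genes of regulatory T cells the IL-2 receptor chain Il2ra (0.64 ± 0.27, but 0.40 against depth-matched cells). Ribosomal protein genes were lower in all 6 libraries in 24 of 25, with a median of -0.20.

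**Figure D2:**
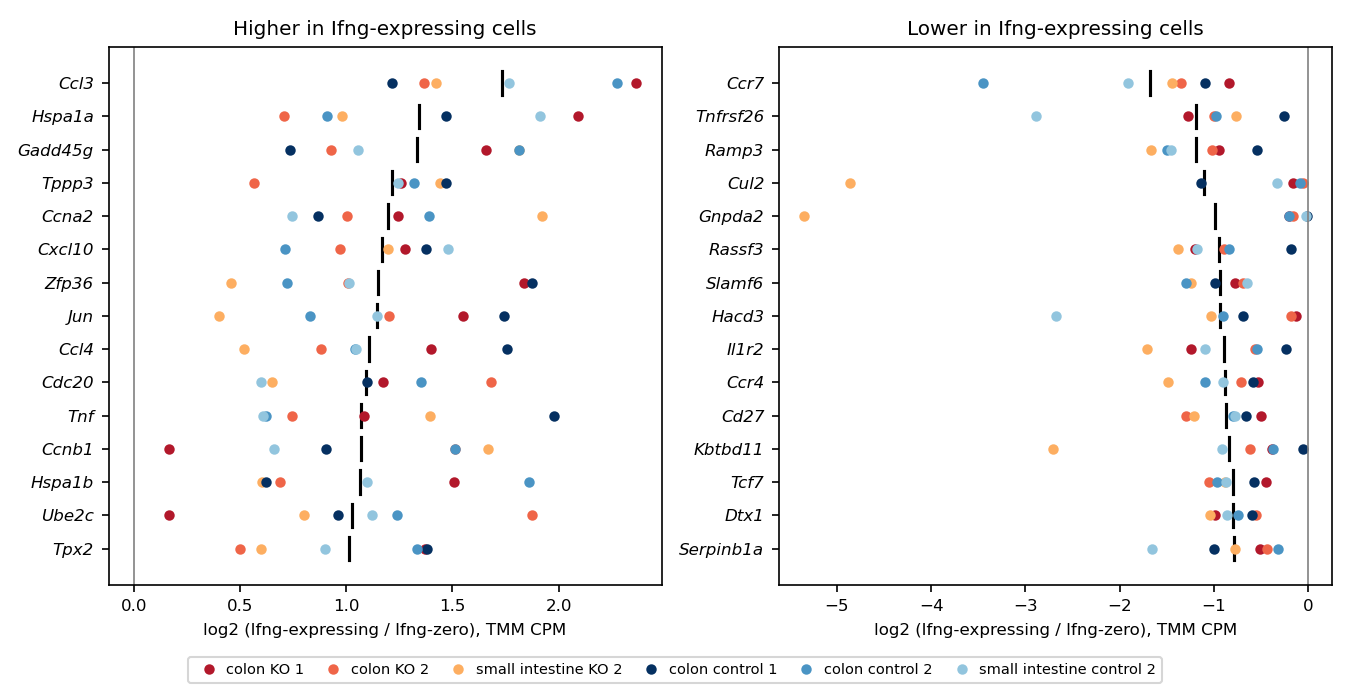
Log2 ratio of scaled CPM in Ifng-expressing over Ifng-zero cells for the 15 genes with the largest mean in each direction; points are the 6 lamina propria libraries, coloured by library, and black lines the means. All 6 points of each gene lie on the same side of 0, with Ccl3 (1.74) and Ccr7 (-1.68) the farthest.

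Among the genes plotted by Ifng level, Gadd45g and Cxcl10 were higher and Ramp3 was lower in cells with more Ifng UMIs, as means of 6 libraries with wide and overlapping ranges. Gadd45g averaged 28.3, 39.8, 51.4, 63.1, 111 and 213 CPM in cells with 0, 1, 2, 3 to 5, 6 to 9 and 10 or more Ifng UMIs, and Cxcl10 averaged 70.9, 96.7, 127, 118, 265 and 335 CPM. Across the threshold, cells with 2 UMIs thus stood above cells with 1 for both genes. Ramp3 ran the other way, with 431, 306, 288, 249, 199 and 174 CPM. Tcf7 averaged 134 CPM in cells without an Ifng UMI and 52.1 CPM in those with 10 or more. Ccl3 had no such order at the top, with 118 CPM in cells with 6 to 9 UMIs and 54.9 CPM in cells with 10 or more. Tbx21 lay between 46.6 and 67.7 CPM at every level, and Ccl5 was lowest, at 6348 CPM, in cells with 10 or more Ifng UMIs. Median depth also increased over these levels, at 2879, 3020, 3172, 3393, 3557.5 and 3914.5 UMIs, and its part in the order was not tested. The highest level held 172 cells, with 9 in the smallest library.

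**Figure D3:**
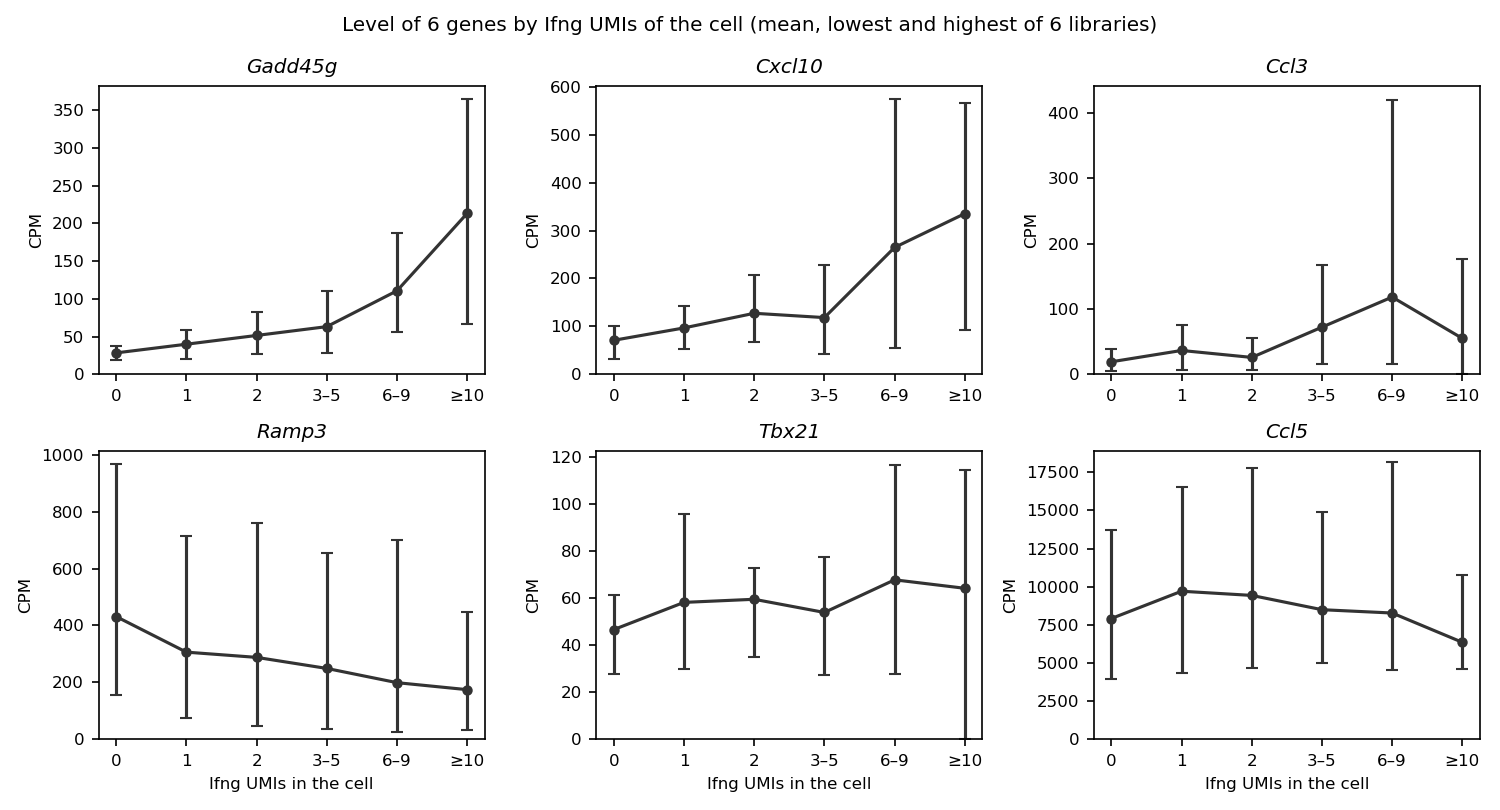
Mean CPM of 6 genes in CD3-positive lamina propria cells grouped by Ifng UMIs (horizontal axis), with bars from the lowest to the highest of 6 libraries. Gadd45g and Cxcl10 are higher and Ramp3 lower in the groups with more Ifng UMIs, while Tbx21 stays between 46.6 and 67.7 CPM.

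The same contrast was run in libraries outside the lamina propria, which supplied no member. Ifng UMIs sorted the cells there too, so the p-values and overlaps below are not independent of that sorting. In spleen and colon epithelium, CD3-positive cells under the same limits gave 52, 215 and 396 Ifng-expressing cells in KO libraries (spleen 1, spleen 2 and colon epithelium) and 92, 52 and 730 in control libraries. There 572 of 10262 genes (5.57%) were higher and 485 (4.73%) lower in Ifng-expressing cells, with edgeR's quasi-likelihood test at a Benjamini-Hochberg adjusted p of 0.05, the genes of the rule among them. With suspect cells left out, those with UMIs of other cell types, much mitochondrial RNA or the highest depth, 414 genes passed in all, against 1057, and without the KO spleen 2 or control spleen 1 library 553 and 663 passed. Of the 52 genes higher in lamina propria members 18 passed as higher there and 0 as lower (34.6%, against 8.28% of 4808 genes that were in neither count). Of the 46 lower genes 18 passed as lower and 0 as higher (39.1%, against 7.09%). Ifng-expressing cells were deeper there too, with library medians of 3022 to 7735.0 UMIs against 2357 to 5593 in Ifng-zero cells, and the part of depth was not tested.

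The 3 largest increases there among the named genes were chemokines. Ccl3 had 11.98, 54.47 and 620.1 CPM in Ifng-expressing cells of KO libraries and 38.3, 135.0 and 1860 CPM in those of control libraries, against 6.27, 6.90 and 49.4 CPM and 1.29, 1.57 and 73.6 CPM in Ifng-zero cells (log2 4.06 ± 0.49 SE, adjusted p = 0.00789, edgeR). The ratio was above 1 in all 6 libraries, and the colon epithelium had the highest levels of both classes. Ccl4 rose by 3.20 ± 0.31 (adjusted p = 0.00382, edgeR) and Ccl1, the ligand of Ccr8, by 4.39 ± 0.67 (adjusted p = 0.0170, edgeR). Genes induced by the T cell receptor passed as higher in 18 of 31, among them Egr2 (2.63 ± 0.19), Nr4a2 (2.13 ± 0.16) and Nr4a1 (1.97 ± 0.26), as did Tnfsf9 (1.59 ± 0.26), the inhibitory receptor Havcr2 (1.53 ± 0.17) and glycolysis genes in 9 of 16.

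Tbx21 passed as well, with 115.0, 98.4 and 68.6 CPM in Ifng-expressing cells of KO libraries and 129.3, 109.7 and 89.0 CPM in those of control libraries, against 76.0, 62.5 and 67.6 CPM and 63.8, 54.6 and 64.6 CPM in Ifng-zero cells (log2 0.60 ± 0.11 SE, adjusted p = 0.000811, edgeR). Regulators and receptors of the Th1 programme passed as higher in 7 of 20 and as lower in 1. Naive and central memory genes fell in 13 of 18, led by Ccr7 (-3.00 ± 0.21, adjusted p = 8.65e-11, edgeR), Id3 (-1.40 ± 0.16), Slamf6 (-1.35 ± 0.10) and the IL-7 receptor Il7r (-1.0 ± 0.14). Several leading genes of the lamina propria did not pass: Hspa1a (-0.36 ± 0.27, adjusted p = 0.536, edgeR), Cxcl10 (-0.25 ± 0.31, adjusted p = 0.714), Jun (-0.19 ± 0.26, adjusted p = 0.753), Gadd45g (1.15 ± 0.34, adjusted p = 0.108) and Tcf7 (-1.42 ± 0.36, adjusted p = 0.0773). Cxcl10 was near the floor there, at 0 to 13.09 CPM over all libraries and both classes. Gadd45g had 161.4 and 220.8 CPM in Ifng-expressing cells of KO and control colon epithelium, against 65.13 and 58.59 CPM in Ifng-zero cells. In spleen Gadd45g had 4.219 to 23.96 CPM in Ifng-expressing cells and 13.91 to 22.99 CPM in Ifng-zero cells. Tcf7 was lower in Ifng-expressing cells of every library. The marker Ccl5 did not pass there either (0.06 ± 0.10, adjusted p = 0.813, edgeR). Whether these contrasts differ between the lamina propria and the other tissues was not tested.

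Loss of Il23r in the transferred cells gave no gene that passed within the members. In KO against control members, 0 of 7866 genes (0%) passed an adjusted p of 0.05 with edgeR's quasi-likelihood test with tissue as a term, 166 had an unadjusted p under 0.05 (82 of them higher), and DESeq2 also called 0. Without the colon control 1 library 97 genes passed (71 higher and 26 lower), Phlda1, Itgae and both histone genes named below among them, and without the colon control 2 library 2 passed. The same fit in Ifng-zero cells passed 0 of 9928 (0%). Il23r itself was near the floor, at 1.66, 1.35 and 0 CPM in KO members and 0, 1.02 and 1.49 CPM in control members, and 3′ tags of the remaining transcript do not check the genotype. Levels from here on are scaled over the members alone and differ slightly from those above.

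Ifng, the gene that chose the members, had 1296, 1517 and 1815 CPM in KO members and 1217, 955.4 and 947 CPM in control members. The libraries did not overlap, with means of 1543 ± 261 CPM in KO and 1040 ± 154 CPM in control (SD, n = 3 each), but the rule set a floor of 2 Ifng UMIs per cell and KO members were shallower in each pair, so that this is a description without a test. Members had median depths of 3882, 2596 and 2566 UMIs in KO libraries and 4689, 3675.5 and 2837 UMIs in control libraries, and a median of 3 Ifng UMIs in each of the 6. The 3 higher genes with the smallest p-values were Phlda1, Irf8 and Ccl3. Phlda1, which the T cell receptor induces, had 180.8, 350.5 and 263.8 CPM in KO members and 141.2, 97.28 and 101.6 CPM in control members (1.23 ± 0.27), with no overlap. Irf8, an interferon-induced transcription factor, had 42.16, 36.4 and 46.55 CPM in KO members and 13.27, 23.55 and 16.43 CPM in control members (1.16 ± 0.30), again with no overlap. Ccl3 had 51.59, 80.88 and 102.4 CPM in KO members and 39.02, 29.18 and 59.75 CPM in control members (0.92 ± 0.25), where the groups overlapped.

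The 3 lower genes with the smallest p-values were Itgae and the histone genes Hist1h2ap and Hist1h2bc. Itgae, the CD103 integrin chain that binds epithelial E-cadherin, had 12.2, 18.87 and 40.34 CPM in KO members and 21.07, 53.76 and 176.3 CPM in control members (-1.55 ± 0.38, not passing), lower in KO within each matched pair. In Ifng-zero cells Itgae stood at -1.17 ± 0.38, Hist1h2ap at -1.29 ± 0.44 and Hist1h2bc at -0.96 ± 0.31, none passing. Tbx21 had 79.33, 71.45 and 58.96 CPM in KO members and 77.25, 29.7 and 46.3 CPM in control members (0.49 ± 0.33). Ccl5 had 7516, 6132 and 8046 CPM in KO members and 5444, 8762 and 15070 CPM in control members (-0.33 ± 0.28). Both marker genes overlapped between genotypes. Gzma had 1057, 973.3 and 837.8 CPM in KO members and 855.2, 2730 and 4199 CPM in control members (-1.30 ± 0.51), and Gzmb stood at 0.20 ± 0.24. Ifng-zero cells gave -1.21 ± 0.41 for Gzma and 0.24 ± 0.21 for Gzmb. No list had a gene past the test. The estimates were higher in KO for 14 of 19 Th1 regulators (median 0.30), 25 of 29 T cell receptor response genes (0.23) and 7 of 8 IL-12 and IL-23 receptor chains and kinases (0.29), against 3724 of 7866 genes overall (median -0.02). Heat shock and dissociation genes were higher in KO in 21 of 22 estimates (median 0.89) and proliferation genes in 0 of 20 (-0.60), and their part in the other estimates was not tested. Hspa1a had 2748, 6294 and 4487 CPM in KO members and 1898, 59.91 and 431.7 CPM in control members (2.60 ± 1.41).

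**Figure D4:**
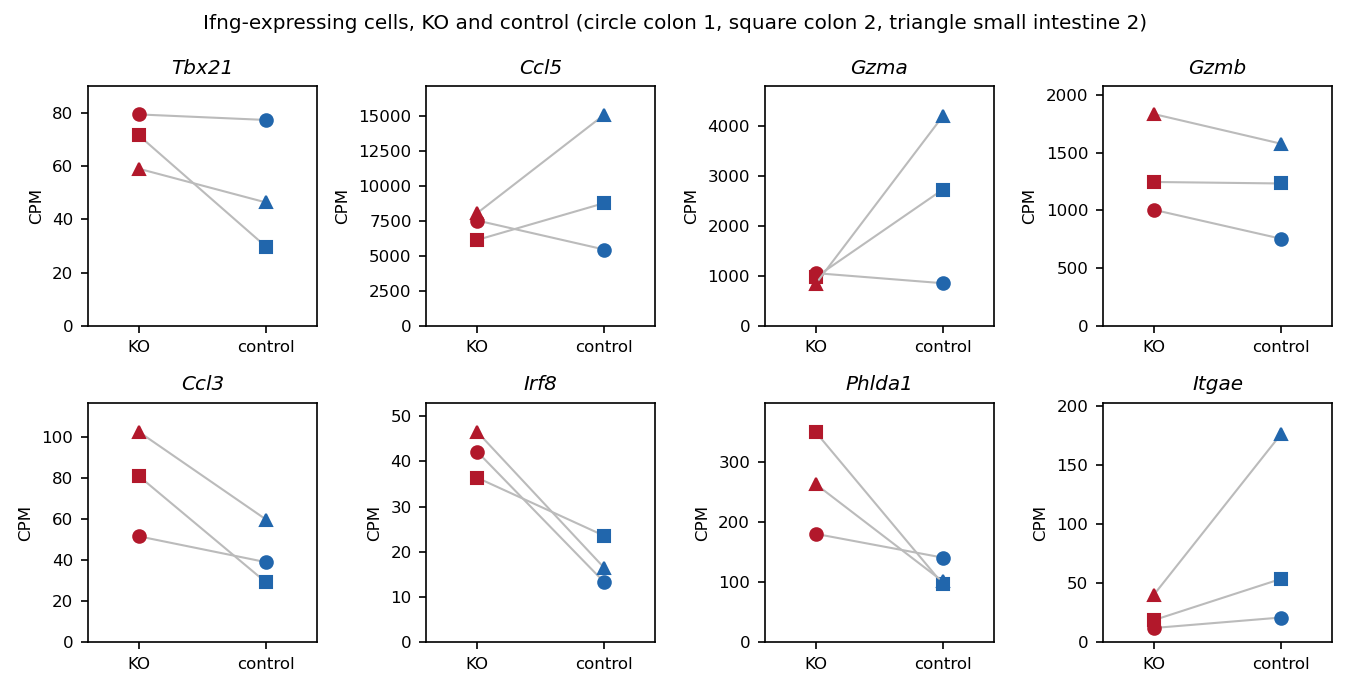
CPM of 8 genes in Ifng-expressing lamina propria cells, KO left of control in each panel; each point is a library (circle colon 1, square colon 2, triangle small intestine) and grey lines join libraries of the same tissue and replicate number. For Irf8 the KO libraries (36.4 to 46.55 CPM) lie above the control libraries (13.27 to 23.55 CPM), and none of these genes passed the adjusted test.

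Members of the small intestine had more of the homing genes Ccr9 and Itgae and of the chemokines Xcl1 and Ccl5 than those of the colon, and less Lmna, Ifitm1 and Klrk1. In the 4 libraries of replicate 2, 45 of 7044 genes (0.639%) were higher and 42 (0.596%) lower in small intestine than in colon members at an adjusted p of 0.05 (edgeR's quasi-likelihood test with genotype as a term). Each tissue had a single library per genotype there, so no spread between replicates within a tissue and genotype entered the p-values. Without the KO small intestine library 1 gene passed, without the control small intestine library 29 and without the control colon library 29, and over all 6 libraries with a replicate block 6 passed. The same fit in Ifng-zero cells passed 70 (0.718%) as higher and 56 (0.575%) as lower of 9747. Ccr9, the receptor for the small intestinal chemokine Ccl25, had 133.4 CPM in KO and 207.6 CPM in control members of the small intestine, against 6.74 and 23.04 CPM in the colon (log2 3.52 ± 0.28 SE, adjusted p = 1.6e-05, edgeR). Itgae had 40.34 and 176.3 CPM in small intestine KO and control members, against 18.87 and 53.76 CPM in the colon (1.59 ± 0.24, adjusted p = 0.00457, edgeR). Both genes rose in Ifng-zero cells too, by 3.02 ± 0.17 and 1.05. Each was higher in the small intestine in both genotypes, while the small intestine KO library lay below the colon control library for Itgae.

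Of 7 chemokines 4 passed as higher and 1 as lower in the small intestine, and of 14 cytotoxic genes 2 passed in each direction. Xcl1 had 375.5 and 143.4 CPM in small intestine KO and control members, against 103.1 and 40.45 CPM in the colon (1.88 ± 0.19, adjusted p = 0.000219, edgeR), and in Ifng-zero cells 0.55 ± 0.15 (adjusted p = 0.0799). Ccl5 had 8046 and 15070 CPM in small intestine KO and control members, against 6132 and 8762 CPM in the colon (0.62 ± 0.08, adjusted p = 0.00112, edgeR), where the small intestine KO library lay under the colon control library. In Ifng-zero cells Ccl5 stood at 0.3112 ± 0.1821, not passing. The tested difference between its tissue effects in members and in Ifng-zero cells was 0.09282 ± 0.1853, which did not pass either. Gzmb had 1834 and 1577 CPM in small intestine KO and control members, against 1246 and 1233 CPM in the colon (0.49 ± 0.10, adjusted p = 0.0362, edgeR), with no overlap between tissues. The mRNA decay factors and brakes Zfp36 (1.32), Zfp36l2 (0.85), Tnfaip3 (0.71) and Rgs1 passed as higher, 4 of 20 in that list and none lower, as did Fos (1.20), Jun (1.0) and the inhibitory receptor Cd160 (1.31). In Ifng-zero cells Jun stood at 1.249 and passed, while Zfp36 at 1.424, Fos at 1.397 and Rgs1 at 0.4985 did not pass. Higher estimates of Jun, Zfp36, Fos and Rgs1 in the small intestine were thus not particular to members. Ccl20 passed (3.85 ± 0.43), but 195.5 CPM in the small intestine KO members stood against 0 CPM in the small intestine control members, 12.81 CPM in colon KO and 0.512 CPM in colon control members, and without the KO small intestine library its estimate was -6.11. Tbx21, at 0.24 ± 0.28, did not pass.

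Genes lower in small intestine members included Lmna, the nuclear lamin A/C, with 21.72 and 8.96 CPM in small intestine KO and control members, against 318.1 and 119.8 CPM in the colon (-3.76 ± 0.30, adjusted p = 1.6e-05, edgeR). Ifitm1, an interferon-induced membrane protein, had 24.82 and 28.38 CPM in small intestine KO and control members, against 461.7 and 291.8 CPM in the colon (-3.65 ± 0.25, adjusted p = 9.15e-06, edgeR), and was the 1 gene that still passed without the KO small intestine library. Klrk1, the activating receptor NKG2D, had 80.68 and 47.8 CPM in small intestine KO and control members, against 267.6 and 166.9 CPM in the colon (-1.73 ± 0.22, adjusted p = 0.00112, edgeR). Tissues did not overlap for any of these 3 genes. Anxa1 (-2.01 ± 0.30), the chemokine Ccl1 (-1.78 ± 0.29), Klrd1 (-1.24), the inhibitory receptor Lag3 (-1.21), Vim (-1.11), S100a4 (-1.31) and S100a6 (-1.05) fell as well. In Ifng-zero cells Lmna stood at -3.37 ± 0.54, Ifitm1 at -3.10 ± 0.38 and Klrk1 at -2.37 ± 0.63, none passing. Anxa1 (-1.83 ± 0.30, passing) and Klrd1 (-1.38 ± 0.58) were lower there too, while Ccl1 stood at 0.33 ± 1.60. Of the lists, proliferation genes passed as lower in 4 of 20 and glycolysis genes in 3 of 15 (Aldoa, Ldha and Tpi1), and gut residency genes as higher in 4 of 14. Some ribosomal protein genes and pseudogene copies, such as Rps27 (0.61) and Rps12-ps3 (0.87), were among the higher genes, and reads may be split between such copies. Of the 25 ribosomal protein genes of the list 0 passed as higher and 0 as lower (median 0.05). The KO small intestine library holds the fewest members, 110, and the lowest share of CD3-positive cells.

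**Figure D5:**
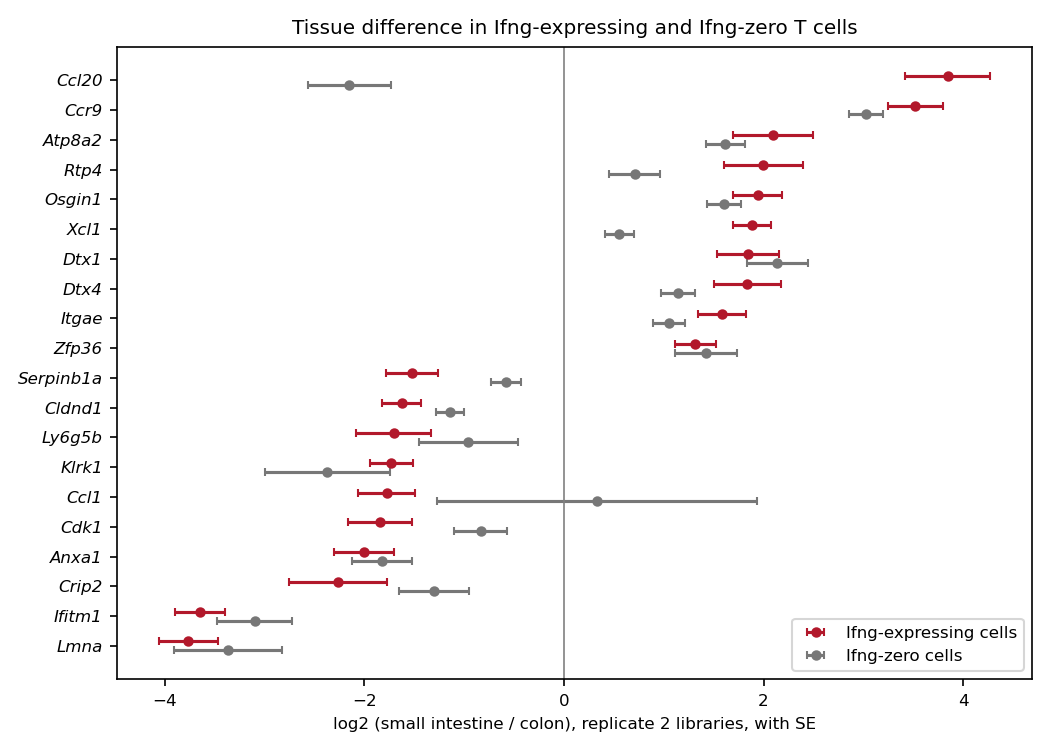
Log2 fold of small intestine over colon in the replicate 2 libraries, with SE, for the 10 genes with the largest change in each direction that passed in Ifng-expressing cells (red), beside the same genes in Ifng-zero cells (grey). Ccr9 (3.52 and 3.02) and Lmna lie on the same side in both classes, while Ccl20, which rests on the KO small intestine library, lies on opposite sides.

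The difference between the effects in members and those in Ifng-zero cells was tested directly, and 1 gene passed. No gene of 8791 (0%) passed for the genotype effect in members minus that in Ifng-zero cells (291 with an unadjusted p under 0.05, smallest adjusted p = 0.0519, edgeR), and 21 passed without the control colon 1 library, 16 without control colon 2, 9 without the KO small intestine, 4 without the control small intestine and 1 without KO colon 2. Irf8 stood at 0.84 ± 0.28 (adjusted p = 1). The smallest p-values belonged to Agr2, Rrad, Epcam and Calca, of which Agr2 and Epcam are epithelial genes with means of 4.20 and 5.33 CPM. For the tissue effect 0 genes passed as higher (0%) and 1 as lower (0.0114%), Ubd, at -12.67 ± 2.05 (adjusted p = 0.00127, edgeR), which stood at 0.40 without the control small intestine library. The number of genes that passed for that effect was 20 without control colon 2, 16 without control colon 1, 10 without the control small intestine, 6 without the KO small intestine and 0 without KO colon 1. Gzmb came close, with a tissue effect larger by 0.45 ± 0.10 in members than in Ifng-zero cells (adjusted p = 0.107, edgeR), and did not pass.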

How the data were processed

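Single cells of 12 libraries were sequenced, and the 6 lamina propria libraries were used throughout. The authors deposited UMI counts of 18601 genes, made per the labels with the 10x Chromium 3′ chemistry, with Cell Ranger 2.0.2 and the mm10 build listed in the submitters' processing notes. The filter the authors put on cells is not given in these sources. No doublet caller was run, because channel loading is not given, and 398 of 414 genes of the lists were found in the matrix. The members and gene lists were chosen with earlier results of these data known.

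UMIs were summed per gene, library and class and scaled by TMM (factors 0.88 to 1.09). The description used log2 CPM with a prior count of 2. Tests used edgeR 4.0.16 (quasi-likelihood, robust, filterByExpr, R 4.3.3) with Benjamini-Hochberg adjustment over all genes, checked on simulated data, and DESeq2 1.42.0 as an alternative. Shares were tested by exact permutation of the library labels within tissue, and their Clopper-Pearson intervals came from scipy 1.17.1. Other alternatives were other size factors, no filter, Ifng UMIs of 3 or more, thinning to 1500 UMIs, depth matching, each library left out, and suspect cells left out (3 or more UMIs of other cell types, over 10% mitochondrial UMIs or the top 5% of UMIs of a library). The limits on Il17a and Il22 for Ifng-zero cells, and depth matching in the tests of effect differences, were added after seeing the data.

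Replicate numbers were taken to pair libraries, because the deposited batch column equals the replicate number for all 32763 cells. The main genotype fit and the main share test did not use these pairs, and a replicate block was run as an alternative for each. Colon members with the same number deviated together (correlation 0.426 over 6538 genes, 0.428 without sex chromosomes). Named genes were the rule and marker genes, the 15 largest mean ratios each way, up to 5 per list, and the 10 largest changes each way past a test, or the 3 smallest p-values where none passed. Genes named only for illustration within a list or tissue result were chosen after their values were seen.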

Additional observations from a re-analysis of the deposited data

Results flagged for a closer look

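Ubd, a ubiquitin-like modifier gene induced by interferon-γ and tumour necrosis factor, was singled out because its tissue effect differed between members and Ifng-zero cells, by -12.67 ± 2.05 on the log2 scale (small intestine over colon; adjusted p = 0.00127, edgeR's interaction term with Benjamini-Hochberg adjustment). Members had 0, 0.674 and 0 CPM in KO libraries (colon 1, colon 2 and small intestine) and 0, 32.77 and 0 CPM in control libraries. Ifng-zero cells had 0.75, 0 and 0 CPM in KO libraries and 0, 0.381 and 4.93 CPM in control libraries. The result rests on the colon control 2 members and the small intestine control Ifng-zero cells, and without the small intestine control library the estimate was 0.40.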

How the results depend on the processing

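Counts of genes depended on the processing more than directions did, and the cause was not tested. For members against Ifng-zero cells, the 46 lower genes became 25 with depth-matched cells, 28 with plain CPM and 81 with Ifng UMIs of 3 or more, and leaving out each library gave 34 to 67 lower and 52 to 62 higher genes. With the Il17a and Il22 limits put on Ifng-zero cells as well, 50 genes were higher and 37 lower. With suspect cells left out, 60 genes were higher and 47 lower, of which 34 and 31 were shared with the main counts. The estimates of Birc5 (-0.0814, depth-matched), Tpx2 (-0.67, thinned), Cdc20 (-0.58) and Ube2c (-0.21, both with suspect cells left out) turned negative. For genotype within members, 11 genes passed without a filter on low counts, 0 with a replicate block, and 0 to 97 with a library left out (97 without colon control 1, 2 without colon control 2). For tissue within members, DESeq2 passed 30, other size factors 53, no filter 158, Ifng UMIs of 3 or more 146 and the replicate block over all 6 libraries 6, with 1 to 60 when a library was left out, where Ccl20 ran from -6.11 to 7.08. For the difference of genotype effects, no filter passed 9, depth-matched cells 4 and leaving out a library 0 to 21. For the difference of tissue effects, DESeq2 passed 0, other size factors 2, no filter 12, Ifng UMIs of 3 or more 6, depth-matched cells 0 and leaving out a library 0 to 20, with Ubd from -13.4 to 0.40. In spleen and colon epithelium 414 passed without suspect cells and 553 to 1288 with a library left out. The logit difference of shares ran from -0.0506 to 0.318 with a library left out and was 0.138 with a replicate block (exact p = 0.75). Members with 2 Ifng UMIs depend on the depth of the cell, and 110 cells limit the KO small intestine sums.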
